A study of Mus musculus with 4 samples.

Results

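The stretch of mouse chromosome 15 from 71 to 91 Mb (build mm9) held 900 LSD1 peaks at day 2 and 463 at day 5 of C2C12 differentiation, of 44039 and 17446 peaks on the whole genome. Its members are all peaks of both lists whose midpoint lies between positions 71000001 and 91000000, 1363 peaks in all. C2C12 is an established mouse myoblast line that stops dividing and fuses into myotubes when serum is lowered. Cells grown in 10% fetal serum were moved to 2% horse serum with 25 mM glucose and were taken after 48 h (day 2, differentiating) or 120 h (day 5, differentiated). LSD1-bound DNA was pulled down with a polyclonal antibody to LSD1 from crosslinked chromatin and sequenced. Each day has 1 LSD1 library and 1 input library, 4 libraries in all, from the same line with no genetic change named in the labels.

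With 1 library per day there is no replicate error, so no difference between the days was tested and no p-value is given. The stretch was chosen from these lists for the share of its day 2 peaks that had a day 5 peak, so that share and the peak numbers are given as a description. Intervals are 95% Wilson intervals for shares and cover counting error only. Neighbouring peaks are not independent, which these intervals do not allow for. No read totals were used here and read depth is unknown, so fewer or narrower peaks on a day cannot be told apart from lower depth in that library. The peak score is the peak caller's own value, as the authors deposited it. Its scale is not stated, and it was used within a list, as a score, as a place in the list (1 is highest) or as a percentile (the share of the whole list with a lower score). The lowest score was 50 in each list. How far peaks of 1 day only depend on that lower end was not tested.

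LSD1, the product of Kdm1a, is a nuclear enzyme that takes methyl groups off lysines of histone H3 and works in complexes with CoREST and histone deacetylases. Such complexes sit at promoters and enhancers, where LSD1 is best known for lowering transcription and for removing enhancer marks as cells change state. In myoblasts it is also known to take part in the switch to muscle gene expression and in the choice between oxidative and glycolytic metabolism. Distal mouse chromosome 15 carries genes of varied roles, only some of them in muscle or chromatin. In the order of RefSeq's GRCm38.p6 table they include Ptk2 (focal adhesion kinase), Plec (plectin, a cytoskeletal linker), Hsf1 (a heat shock transcription factor), Myh9 (non-muscle myosin heavy chain), Pvalb (parvalbumin, a calcium buffer of fast fibres), Lgals1 (galectin, made by myoblasts), Sox10 (a neural crest transcription factor), Atf4 (a stress response transcription factor), Mrtfa (a coactivator of serum response factor), Ep300 (a histone acetyltransferase), Srebf2 (a regulator of sterol synthesis), Ppara (a nuclear receptor of fatty acid oxidation), Brd1 (a subunit of histone acetyltransferase complexes) and Cpt1b (the muscle enzyme of fatty acid entry into mitochondria). That table belongs to another assembly than the peaks, so no peak was assigned to a gene and sites are named by position.

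LSD1 peaks in the stretch were dense, and those of day 5 were fewer and narrower than those of day 2. The 900 day 2 peaks lay at 45 per Mb and covered 823 kb, 4.12% of the 20 Mb. At day 5, 463 peaks lay at 23.2 per Mb and covered 207 kb, or 1.04%. Over all autosomes the densities were 18.1 and 7.22 per Mb, and over the rest of chromosome 15 they were 19.6 and 9.54 per Mb. The stretch makes up 19.96% of the length spanned by peaks on chromosome 15 and took 36.4% of that chromosome's day 2 peaks and 37.7% of its day 5 peaks. There were 1.94 day 2 peaks for each day 5 peak in the stretch, against 2.52 over the whole lists. The rest of chromosome 15 had 1573 day 2 and 765 day 5 peaks, and chromosome 8 from 79 to 99 Mb had 538 and 329. A ratio below that of the whole lists was thus not particular to the stretch. The line's copy number and how reads were placed were not analysed here.

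Peaks in the stretch were also wide for their lists. The median width was 778.5 bp at day 2 (quartiles 570 to 1141) and 406 bp at day 5 (303 to 534), against 665 and 331 bp over all autosomes. The rest of chromosome 15 had medians of 793 and 431 bp, close to those of the stretch. The narrowest and widest peaks measured 198 and 4447 bp at day 2 and 110 and 1798 bp at day 5. Scores had a median of 116 at day 2 (quartiles 70.1 to 220) and 80.8 at day 5 (60.6 to 119). The top decile of the whole list by score, which holds 10.0% of each list by construction, held 138 day 2 peaks of the stretch (15.3%) and 67 of its day 5 peaks (14.5%). The upper quartile of scores was 220 and 119 in the rest of chromosome 15, and 230 and 124 in chromosome 8 from 79 to 99 Mb. High scores were thus not particular to the stretch.

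**Figure D1:**
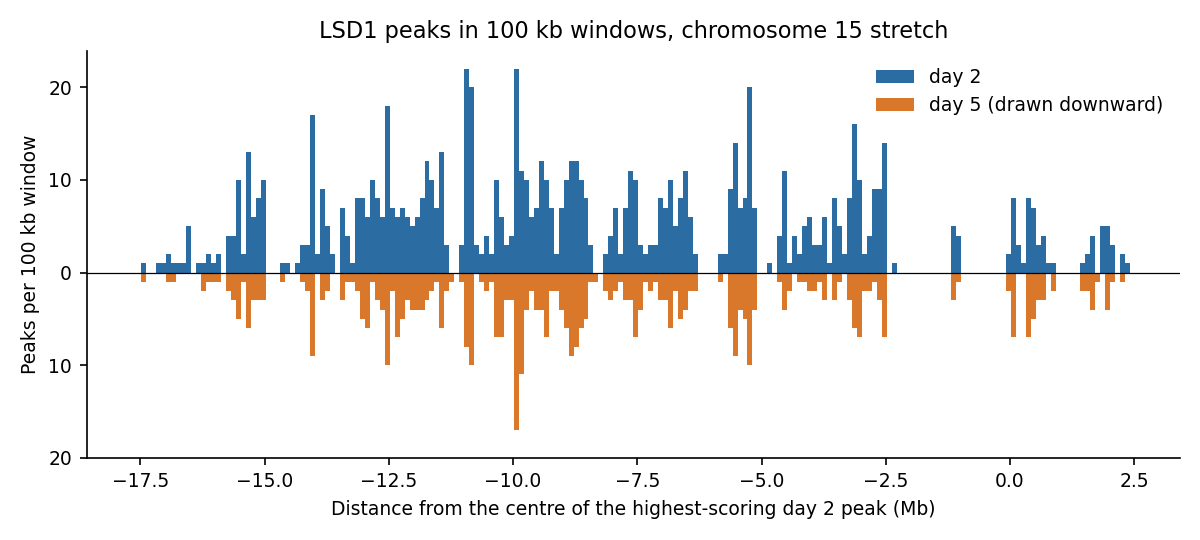
Peaks in each 100 kb window of the stretch, as a number of peaks (vertical axis, day 2 upward and day 5 downward), against the distance in Mb from the centre of the highest-scoring day 2 peak, which spans 88581196 to 88583234. The windows reach 22 peaks at day 2 and 17 at day 5, and the right part has long intervals without a peak on either day.

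The peaks were gathered between 73 and 86 Mb. Of the blocks of 5 Mb, that from 76 to 81 Mb held the most, with 369 day 2 and 204 day 5 peaks. The next held 267 and 126 (81 to 86 Mb), the first 179 and 78 (71 to 76 Mb), and the last 85 and 55 (86 to 91 Mb). By single Mb the numbers ran from 8 day 2 and 3 day 5 peaks (71 to 72 Mb) to 89 day 2 peaks (79 to 80 Mb) and 57 day 5 peaks (78 to 79 Mb). Each of the 20 windows of 1 Mb had more day 2 than day 5 peaks. The nearest to equal were 89 to 90 Mb, with 16 and 13 peaks, 88 to 89 Mb, with 22 and 16, and 78 to 79 Mb, with 78 and 57. The most unequal were 71 to 72 Mb and 84 to 85 Mb, with 42 and 16 in the latter, followed by 85 to 86 Mb, with 73 and 28.

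At the scale of 100 kb, 151 of the 200 windows had a day 2 peak, 132 had a day 5 peak and 46 had neither. At least 10 day 2 peaks lay in 31 windows, which together held 401 of the 900 day 2 peaks. For day 5, 5 windows had at least 10. On the whole genome 692 and 39 windows reached that number. Besides the pair of dense windows described below, which had 22 day 2 peaks each, the fullest were 77700001 to 77800000 (20 day 2 and 10 day 5 peaks), 83300001 to 83400000 (20 and 10), 76000001 to 76100000 (18 and 10) and 74500001 to 74600000 (17 and 9). At day 5 the window from 78700001 to 78800000 came second, with 11 peaks of each day. The remaining windows among the 10 fullest of either day held 12 to 16 day 2 and 6 to 9 day 5 peaks. Day 5 peaks outnumbered day 2 peaks in 10 windows of the stretch, in each by 1 peak. The fullest of these were 76200001 to 76300000 (6 day 2 and 7 day 5 peaks) and 78300001 to 78400000 (6 and 7).

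Joining peaks of either day across gaps under 10 kb gave 385 loci, and loci of several day 2 peaks carried both days more often than loci of a single one. A total of 232 loci (60.3%, 55.3 to 65.0) had peaks of both days, 142 had day 2 peaks only and 11 had a single day 5 peak only. Of the 191 loci with 1 day 2 peak, 81 had a day 5 peak (42.4%). With 2 day 2 peaks it was 56 of 81 loci, with 3 it was 27 of 31, with 4 it was 24 of 25, and with 5 or more it was 44 of 46. A larger locus has more peaks beside which a day 5 peak can lie, and no allowance was made for this. Loci with both days were a median of 6.41 kb long and those of day 2 alone 0.749 kb.

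The 5 loci with the most peaks spanned 29.3 to 80.7 kb and each carried both days. The locus from 77646161 to 77723046 (76.9 kb) held 25 day 2 and 12 day 5 peaks. Next came 78658692 to 78687972 (29.3 kb) with 15 and 14, then 83277520 to 83358174 (80.7 kb) with 19 and 9, and 76019986 to 76082386 (62.4 kb) with 16 and 10. The fifth, 73252593 to 73297716 (45.1 kb), held 13 and 6, and 83384081 to 83433674 (49.6 kb), with 12 and 7, had as many in all. Day 2 peaks covered 52.5% of the locus from 78658692 and day 5 peaks 18.2%, the highest cover of these loci on both days. In the others day 2 peaks covered 23.3 to 34.2% and day 5 peaks 5.58 to 8.80%.

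The window from 77600001 to 77700000 was among the fullest of the stretch on both days, with fewer peaks and less length covered at day 5. It held 22 day 2 peaks covering 20.7 kb and 8 day 5 peaks covering 4.01 kb. The median window of 100 kb in the stretch had 3 day 2 peaks and 1 day 5 peak. Of the 22 day 2 peaks, 6 had a day 5 peak (27.3%, 13.15 to 48.15). That interval includes the 41.3% of the stretch and the 30.4% of the whole list. Most day 2 peaks of the window were weak, with a median score of 89.6 against 116 for the stretch. Its 3 highest-scoring peaks were spread over the window. The first, 77628126 to 77630340 (2215 bp, score 467), had a day 5 peak of 494 bp with a score of 110. Another, 77671361 to 77673535 (2175 bp), had nearly the same score, 466, and no day 5 peak. The nearest day 5 peak was 5313 bp away. The last, 77692852 to 77694117 (score 401), held 2 day 5 peaks of 441 and 454 bp with scores of 50.4 and 71.2.

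Beside these, the order of scores in that window differed between the days. Its highest day 5 peak, 77680314 to 77681260 (947 bp, score 161, percentile 90.7), lay over a day 2 peak of 510 bp with a score of 61.8 (percentile 18.0). This is 1 of 4 among the 420 overlapping pairs of the stretch in which the day 5 peak was the wider one. A day 2 peak at 77650389 to 77651609 scored 264 and its day 5 partner 82. The day 5 peak at 77687333 to 77687622 (score 58.3) had no day 2 peak, and the nearest was 2155 bp away. Between 77654596 and 77666946 the window had 5 day 2 peaks, all with scores from 51.5 to 84.4, and none of them had a day 5 peak.

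The window from 78600001 to 78700000 had a high number of peaks on both days, with less length covered at day 5. It held 22 day 2 peaks covering 21.9 kb and 17 day 5 peaks covering 6.75 kb, the most day 5 peaks in any 100 kb window of the stretch. Of the 22 day 2 peaks, 11 had a day 5 peak, and of the 17 day 5 peaks, 16 had a day 2 peak. Day 2 scores were high, with a median of 182, while day 5 scores had a median of 71.4, below the 80.8 of the stretch. On its left, up to 78633644, the window had 6 day 2 and 2 day 5 peaks. No peak of either day lay between 78633644 and 78658692, and a compact block of peaks followed, with 1 further peak of each day beyond it, at 78698698 to 78700104 at day 2.

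The strongest site of the left part, 78625936 to 78627507 (1572 bp), scored 1173 at day 2 and took place 101 of the whole list. Its day 5 peak, 78626648 to 78627375 (728 bp), scored 270 and took place 392. The block from 78658692 to 78687972 held 15 day 2 and 14 day 5 peaks within 29.3 kb. At its core lay a day 2 peak of 2346 bp at 78663910 to 78666255, with a score of 1442 and place 38, the second highest of the stretch. Just before it lay a peak of 740 bp at 78663068 to 78663807 with a score of 1004. The core peak held 4 day 5 peaks, with scores of 69.0, 63.2, 284 and 50.4 from left to right, and the neighbour held 1 with a score of 217.

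Further along the block, a wide and weaker day 2 peak of 3407 bp (78672634 to 78676040, score 501) held 3 day 5 peaks with scores of 70.1, 64.3 and 84.8. A day 2 peak of 1118 bp from 78685844 scored 346, and its day 5 partner of 623 bp scored 185. Some strong day 2 peaks of the window had no partner. A peak of 413 bp at 78667309 to 78667721 scored 386 and lay 103 bp from the nearest day 5 peak, and one of 654 bp at 78603648 to 78604301 scored 318 and lay 16.7 kb from it. The day 5 peak at 78682179 to 78682461 (283 bp, score 98.4) had no day 2 peak, although a weak day 2 peak (score 67.0) lay 372 bp away.

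The site of highest day 2 score, 88581196 to 88583234, had few peaks close by. Its day 2 peak was 2039 bp wide and had a score of 1905, the highest of the stretch and place 10 of the 44039 day 2 peaks. At day 5 the site was made of 2 peaks separated by 4 bp. The left one, 88581312 to 88582156 (845 bp), scored 329 and took place 218 of 17446, and the right one, 88582161 to 88582712 (552 bp), scored 114 and took place 3595. Both lay within the day 2 peak and together covered 1397 bp of it. Within 50 kb of the site there was 1 further peak, a day 2 peak of 1503 bp at 88563445 to 88564947 (score 280) with no day 5 peak. An interval of 1.02 Mb without a peak, from 87548164 to 88563444, ended at that neighbour. On the other side the next locus, 88649144 to 88695002 (45.9 kb), held 8 day 2 and 7 day 5 peaks.

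**Figure D2:**
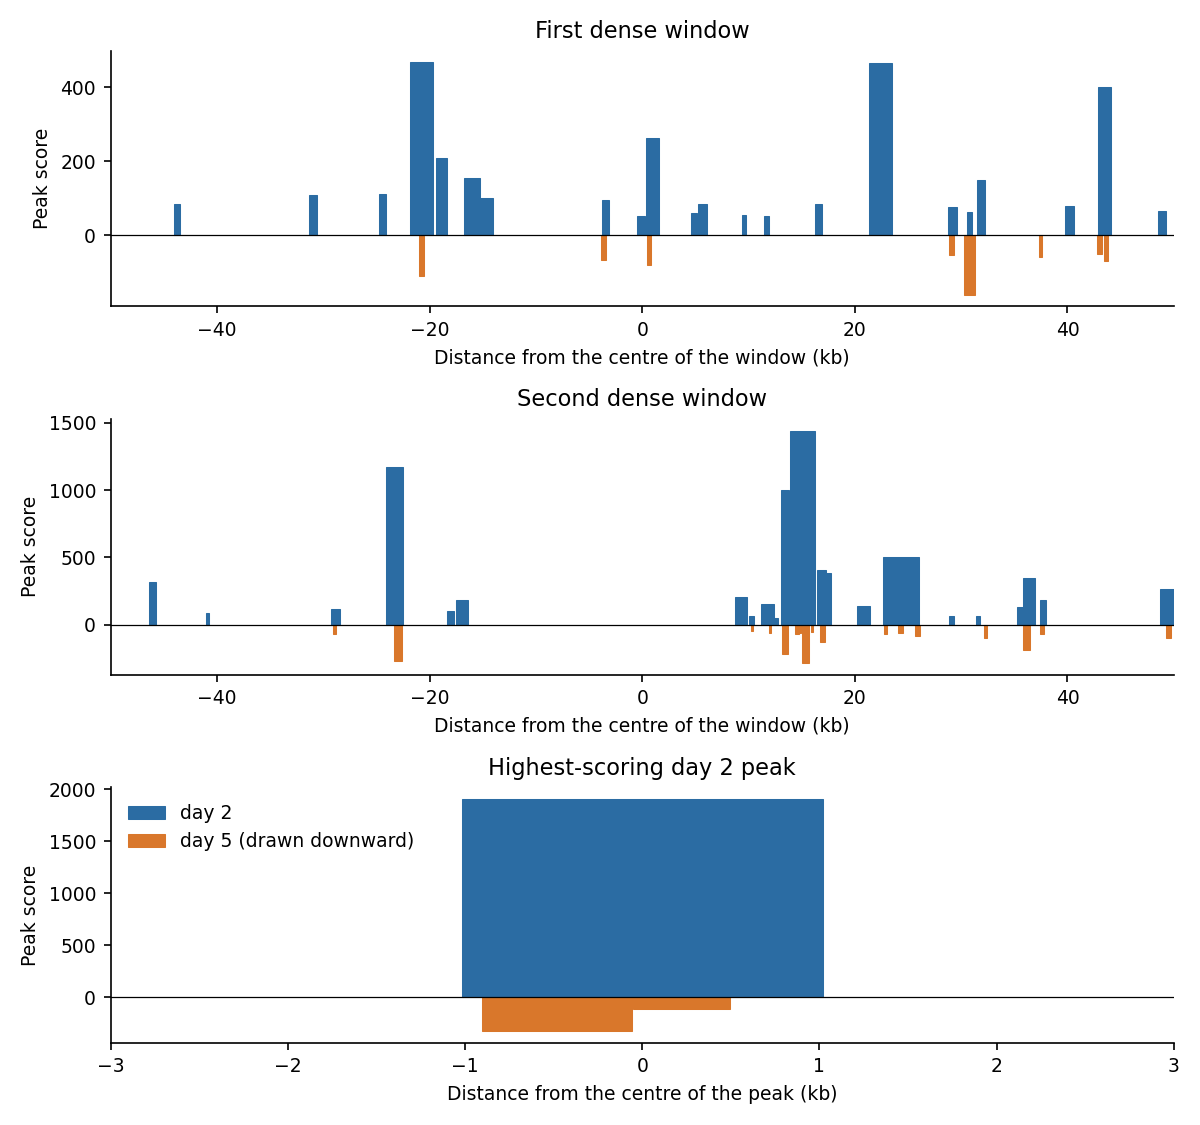
Peak score (vertical axis, day 2 upward and day 5 downward, each on its own caller's scale) against the distance in kb from the centre of the window or peak, with bars as wide as the peaks. The top panel is the window from 77600001 to 77700000, where 6 of 22 day 2 peaks had a day 5 peak, the middle panel that from 78600001 to 78700000, where 11 of 22 had one, and the bottom panel the site of score 1905 with its 2 day 5 peaks.

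Each of the 10 highest-scoring day 2 peaks, with scores from 952 to 1905, had a day 5 peak, and each of the 10 highest-scoring day 5 peaks, with scores from 329 to 453, had a day 2 peak. Over the whole lists 85.9% of the top decile of day 2 peaks by score and 99.8% of that of day 5 peaks had a peak of the other day, so these counts do not set the stretch apart. The sites in both sets of 10 numbered 4. The first was 79059022 to 79060383, with a day 2 score of 1066 and a day 5 score of 453, the highest of the stretch at day 5 (place 60). Its day 5 peak was 1194 bp wide, close to the 1362 bp of day 2. The second, 85309223 to 85310195, scored 1252 and 439. The third, 85919730 to 85921122, scored 979 and 339, and the last was the site from 88581196 described above.

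Some sites high in the day 5 list were lower in the day 2 list. The day 2 list is longer, so percentiles are added to the places of these sites. The fourth-highest day 5 peak of the stretch, 72520169 to 72520637 (469 bp), had a score of 434 (place 79, percentile 99.55). It lay in a day 2 peak of 706 bp with a score of 285 (place 5803, percentile 86.8). At 73296913 to 73297596 a day 5 peak of 684 bp scored 361 (place 148, percentile 99.15). Its day 2 peak of 873 bp scored 617 (place 924, percentile 97.9), so the percentiles were close. The reverse was found at 76028275 to 76030938, a day 2 peak of 2664 bp with a score of 1082 (place 134) that held 2 day 5 peaks with scores of 66.7 and 90.1 (places 10044 and 5794). A short day 5 peak of 237 bp at 76352599 to 76352835 scored 443, the second highest of the stretch, in a day 2 peak of 2212 bp with a score of 754.

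Broad day 2 peaks were a larger share here than over the whole list. Peaks of at least 2000 bp numbered 43 of 900 (4.78%, 3.57 to 6.37), where the whole list had 1.51%. Their share was not counted in the rest of chromosome 15 or in chromosome 8 from 79 to 99 Mb. The upper quartile of day 2 widths was 1103 and 1202 bp in those parts, against 1141 bp in the stretch, so wide peaks were not particular to it. Of the 43, 39 had a day 5 peak, which is 90.7%, and over the whole list 579 of 664 peaks of that width had one, or 87.2%. The widest peak, 76033999 to 76038445, measured 4447 bp with a score of 952 and held 1 day 5 peak of 1159 bp near its right end, 1415 bp from midpoint to midpoint. The next in width were 78672634 to 78676040 (3407 bp), 79854582 to 79857924 (3343 bp), 76285577 to 76288770 (3194 bp) and 76866623 to 76869724 (3102 bp). At day 5 the widest was 79989709 to 79991506 (1798 bp, score 276), and 10 peaks reached 1000 bp.

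Several broad day 2 peaks were covered by separate day 5 peaks. In the stretch 40 day 2 peaks (4.44%, 3.28 to 5.995) held at least 2, an interval that includes the 3.44% of the whole list. Among them 34 held 2, 4 held 3 and 2 held 4. The peaks with 4 were that of score 1442 in the window from 78600001 and 79854582 to 79857924 (score 694), in which the day 5 peaks scored 235, 50.01, 76.6 and 95.3 from left to right and covered 73.7% of it. Those with 3 began at 75578047 (score 410), 76291356 (1374), 78672634 (501) and 83053281 (633). The summed widths of their day 5 peaks came to 34.8 to 64.2% of the width of the day 2 peak. At 75578047 and 78672634 a day 5 peak reached past the edge of the day 2 peak, so the part covered was smaller there. In the opposite arrangement, 4 day 5 peaks each met 2 day 2 peaks. The highest-scoring of these, 81977787 to 81978704 (score 259), met a day 2 peak with a score of 189 and the next one, with a score of 858.

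The 420 overlapping pairs of the stretch had the day 5 peak inside a broader day 2 peak in most cases. In 416 pairs the narrower peak was that of day 5, and in 372 (88.57%) it lay wholly within the day 2 peak. The width of the day 2 peak divided by that of the day 5 peak had a median of 2.47 (quartiles 1.80 to 3.54), and of 2.59 over all pairs of the lists. Midpoints were a median of 138 bp apart, with the day 5 midpoint to the right in 206 pairs and to the left in 214. In percentile of score, the day 5 peak stood higher than its partner in 120 pairs (28.6%), against 23.2% of all pairs, and the median change was -10.5 percentile points, against -16.6. Both lists are ranked over different numbers of peaks, so a change of percentile is no change of occupancy.

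**Figure D3:**
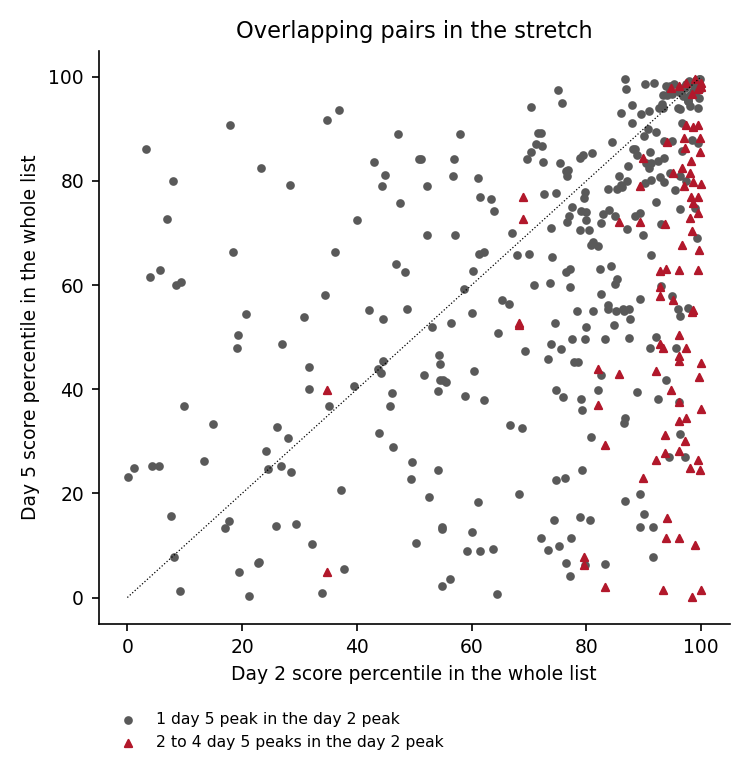
Score percentile of the day 5 peak (vertical axis) against that of its day 2 partner (horizontal axis), each within its whole list, for the 420 overlapping pairs. Dots are pairs in which the day 2 peak held 1 day 5 peak, triangles those with 2 to 4, and the dotted line marks equal percentiles, with 120 pairs above it.

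The largest rises and falls in percentile were taken among pairs over the day 2 median score. The 5 largest rises ran from 26.9 to 33.4 points. They lay at 83311351 to 83312190 (day 2 score 106, day 5 score 127), 79721773 to 79723165 (107 and 127), 79709338 to 79710223 (124 and 149), 81344449 to 81345436 (121 and 127) and 81769864 to 81770322 (110 and 112). Since the choice began at the middle of the day 2 list, no rise could exceed 50 points, so the sizes of rises and falls are not compared. Below that limit, the pairs with day 2 peaks from 79769477 and 77680534 rose by 82.9 and 72.75 points. The day 5 peak of the first pair also met a stronger day 2 peak, 79769948 to 79770222 (score 307, percentile 88.5). Against that peak the change was -2.45 points, so the rise of 82.9 points concerns the weaker day 2 peak only. All 5 of the largest falls, of 84.6 to 98.5 points, were the weakest of several day 5 peaks in a single day 2 peak. These day 2 peaks began at 79854582, 78663910, 77692852, 76352321 and 83304073, so the fall concerns a part of each site and not its strongest day 5 peak. The 5 day 5 peaks had scores from 50.01 to 53, close to the lowest score of 50 in the list.

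By the share that chose the stretch, 372 of the 900 day 2 peaks had a day 5 peak (41.3%, 38.2 to 44.6), where the whole list had 30.4%. Of the 463 day 5 peaks 416 had a day 2 peak (89.8%, 86.8 to 92.3), where the whole list had 86.1%. When 50% of both peaks had to overlap, the shares of the stretch were 14.7% and 28.5%, and when the day 2 list was limited to as many peaks as the day 5 list they were 67.2% and 67.6%. The rest of chromosome 15 had 37.6% and 89.0%, and chromosome 8 from 79 to 99 Mb had 45.2% and 87.8%. Split by decile of the day 2 score, the share with a day 5 peak was above that of the whole list in all 10 deciles. The differences were unequal. In the eighth decile (scores 165 to 221) 61 of 101 peaks had a day 5 peak, 60.4% (50.7 to 69.4) against 44.8%, and in the ninth 64 of 84 had one, 76.2% (66.1 to 84.0) against 60.8%. In the top decile the shares were 87.0% (80.3 to 91.6) and 85.9%. These are the peaks whose share chose the stretch, so nothing is read from the split.

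**Figure D4:**
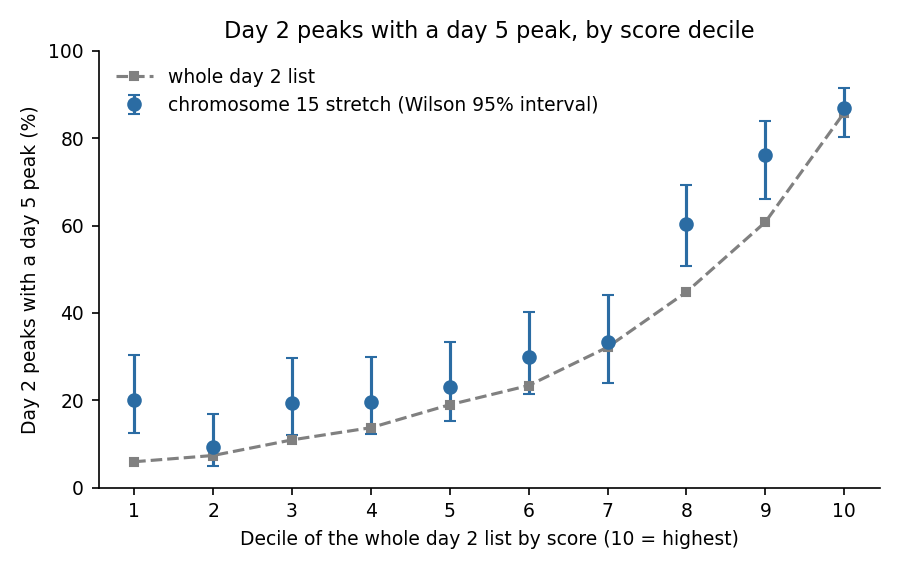
Share of day 2 peaks with a day 5 peak, in percent (vertical axis), by decile of the whole day 2 list by score (horizontal axis, 10 is highest). Circles with bars give the stretch with its 95% Wilson interval and squares the whole list, and the circles lie above the squares in each decile.

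Day 2 peaks without a day 5 peak numbered 528 (58.7%) and were weaker and narrower than those with one. Their median score was 86.6 and their median width 638 bp, against 220 and 1013 bp for the 372 with a day 5 peak. They were mixed among the others: 341 lay in loci that also carried day 5 peaks and 187 in loci of day 2 alone. A day 5 peak lay within 1 kb of 63 of them and within 10 kb of 306 (58.0%), and the median distance was 7.26 kb. Still, 18 were in the top decile of the day 2 list, where 120 of 138 peaks of the stretch had a day 5 peak. That is 87.0%, against 85.9% of that decile over the whole list, so the 18 do not set the stretch apart. Of day 2 peaks of any score, 41.3% in the stretch and 30.4% in the whole list had a day 5 peak.

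The highest-scoring day 2 peaks without a day 5 peak had scores from 386 to 660. That with 660, at 85150221 to 85151142, was 922 bp wide, took place 759 of the list and lay 7874 bp from the nearest day 5 peak. It was followed by the peak of score 466 in the window from 77600001, by 85435657 to 85437314 (1658 bp, score 464, 1356 bp from a day 5 peak) and by 89203546 to 89204888 (1343 bp, score 438, 4790 bp). The others began at 83300924 (score 425), 76019986 (411), 81559598 (398), 85364469 (389), 78667309 (386) and 75434921 (386). Among these 10, the peak from 81559598 lay farthest from a day 5 peak, at 14.0 kb. Of the 10, 3 lay between 85150221 and 85437314.

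Whole loci of day 2 alone were mostly single weak peaks. Of the 142, 110 had 1 peak and 7 had at least 3. The fullest, 73537479 to 73562563, held 6 peaks over 25.1 kb with a highest score of 344. The locus from 90434504 to 90456948 held 5 peaks over 22.4 kb with no score above 63.2, and that from 72031212 to 72038961 held 4 with none above 69.4. The last lay far from day 5 peaks. Of the 14 day 2 peaks more than 100 kb from any day 5 peak, 10 lay between 71462832 and 72207942, and the farthest, at 72051974 to 72052588, was 327 kb away.

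Day 5 peaks without a day 2 peak were few, weak and narrow. They numbered 47 (10.2%), with a median score of 56.6 and a median width of 266 bp, against 84.8 and 421 bp for the 416 with a day 2 peak. Over the whole list 86.1% of day 5 peaks had a day 2 peak, with 68.25% in the lowest score decile and 99.83% in the top one. Of the 47, none was in the top decile of the day 5 list, and 12 were in its upper part by the median. A day 2 peak lay within 1 kb of 14 and within 10 kb of 36 (76.6%). The highest-scoring was 78316874 to 78317222 (349 bp, score 113, place 3621), 2593 bp from a day 2 peak. After the peak of score 98.4 in the window from 78600001 came 82948905 to 82949154 (94.0), 77759521 to 77759900 (92.4) and 76491539 to 76491871 (86.4), the last 161 bp from a day 2 peak. The next 5 scored from 79.03 to 83.7 and began at 78286583, 81131202, 75681212, 78773221 and 83212722. Of these 10, 4 lay between 78286583 and 78773486.

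The 11 loci made of a day 5 peak alone had scores from 50.1 to 79.03, and 3 of them lay within 150 kb of each other, at 90152202, 90220776 and 90300729. The window from 90 to 91 Mb had 5 day 5 peaks without a day 2 peak out of 15. Of the 47, 2 were more than 100 kb from any day 2 peak, at 77373262 to 77373468 (score 52.9, 132 kb) and at 80293912 to 80294126 (score 59.5, 119 kb).

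**Figure D5:**
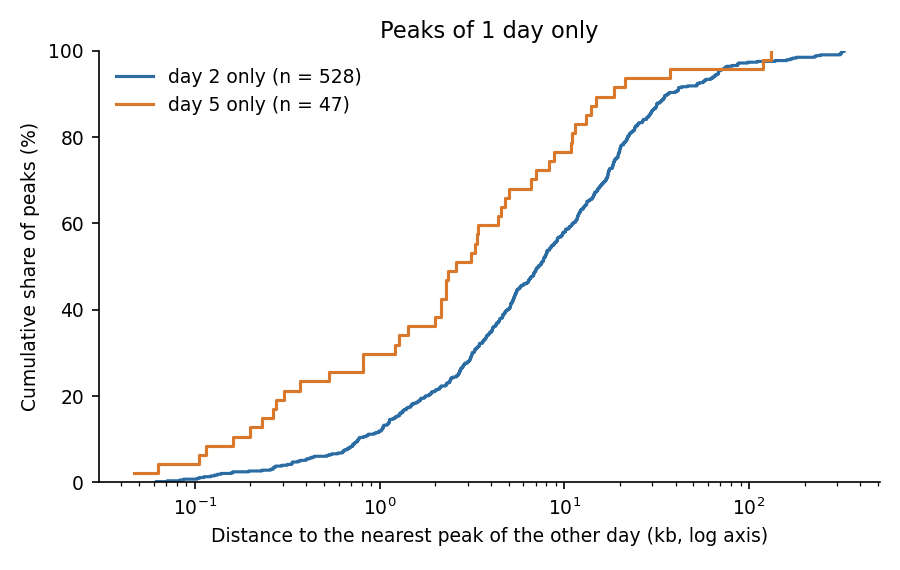
Cumulative share, in percent (vertical axis), of peaks of 1 day only against the distance in kb to the nearest peak of the other day (horizontal log axis). The curve of the 47 day 5 peaks reaches 76.6% at 10 kb and that of the 528 day 2 peaks 58.0%.

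Peaks followed each other closely between long empty intervals. Neighbouring day 2 peaks were a median of 7.20 kb apart (quartiles 2.15 to 18.6 kb), and 150 of the 899 gaps were under 1 kb. For day 5 the median gap was 13.8 kb (quartiles 3.89 to 40.3 kb), and 69 of 462 were under 1 kb. The shortest gap was 1 bp on both days. The 5 longest intervals without a peak of either day ran from 86268069 to 87454185 (1.19 Mb), 87548164 to 88563444 (1.02 Mb), 89422833 to 90054123 (631 kb), 82248409 to 82729140 (481 kb) and 73579506 to 73906292 (327 kb). Whether reads can be placed there was not analysed here.

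The edges of the stretch fell in sparse sequence. The first day 2 peak inside was 71157019 to 71157427 (score 72.3), and the last one outside was 69311311 to 69311917 (score 126). At the other edge the last day 2 peak inside was 90922609 to 90923320 (score 142) and the first outside 91021534 to 91023103 (score 346). For day 5 the peaks inside were 71157072 to 71157246 (score 57.7) and 90822746 to 90823134 (74.5), and those outside were 68090396 to 68090805 (97.8) and 91021762 to 91022361 (62.7). The Mb before the stretch held no peak on either day, and the Mb after it held 7 day 2 and 4 day 5 peaks.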

How the data were processed

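LSD1 ChIP-seq was done in C2C12 cells at day 2 and day 5, with 1 library per day. Groups were taken from the sample titles. Positions are in mm9, which the submitters' processing notes give along with Bowtie2 and deepTools, with no version of either. Per the file headers, the authors called peaks with MACS in Galaxy, 1 list per library. For MACS, the version, cutoff and use of the input are not given in the sources used. Each deposited line gives a position in bp and a peak score as the caller gave it, with no stated scale.

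Starts, counted from 0 in the deposited lists, are printed counted from 1. Peaks were placed by midpoint and called shared at an overlap of at least 1 bp. Loci join peaks of either day across gaps under 10 kb. Named sites follow a fixed rule: per list the 10 highest-scoring, the 5 widest and the 10 highest-scoring peaks of 1 day only, the fullest 100 kb windows, the 5 loci with the most peaks, the 5 longest gaps, the 5 largest rank changes each way, and the peaks of the windows from 77600001 and 78600001 and near the site from 88581196. Other sites, such as loci of 1 day only and peaks holding several day 5 peaks, were picked after their values were seen. The members and lists were chosen with earlier results of these data known. No sequence or annotation of mm9 was used here. Overlap and locus counting were tested on simulated data. Scripts ran in Python 3.11.15 with pandas 2.3.3, NumPy 2.4.6 and SciPy 1.17.1, and figures were drawn with Matplotlib 3.10.9.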

Additional observations from a re-analysis of the deposited data

How the results depend on the processing

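Of 50 alternatives for 11 values of the stretch, 28 kept within the 95% interval of the value or, for counts and lengths, within 1.5 times of it. The other 22 moved. Values of these kinds cannot change sign. Moving the edges to 72 and 90 Mb kept all 11 within these bounds. Scores at or above the list median left 494 day 2 and 274 day 5 peaks, with median widths of 1031 and 477.5 bp and 85.8% of day 5 peaks shared. Equal list lengths left 399 day 2 peaks covering 499 kb with a median width of 1149 bp, with 67.2% of them and 67.6% of the day 5 list's peaks shared, and a width ratio of 2.74. When 50% of both peaks had to overlap, 14.7% of day 2 peaks and 28.5% of day 5 peaks were shared and the width ratio was 1.57. Counting a peak within 1 kb as shared raised the shares to 48.3% and 92.9%. After peaks under 1 kb apart were merged, the median widths were 873 bp and 440 bp, and 45.3% of day 2 peaks were shared. Joining peaks under 5 kb gave 55.3% of loci with both days, and under 20 kb 203 loci with 71.4%. Fewer peaks under the score limit and equal lengths, and fewer pairs under the 50% rule, follow from their construction. So does the lower width ratio under the 50% rule, which admits no pair with a ratio above 2. Counting peaks within 1 kb can only raise the shares, and joining under 20 kb can only lower the number of loci. A shorter day 2 list can only lower the share of day 5 peaks with a partner. For the other moves the cause was not tested. No paired analysis was possible because each group has 1 library and the results come from no test. For the same reason there was no replicate to leave out, and no gene or sequence analysis in mm9 was run.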
